A study of Mus musculus with 4 samples.

Results

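The 32 genes described here belong to the piRNA pathway and to germ granules, and they were followed through the germ cells of 4 mouse testis libraries. PIWI-interacting RNAs (piRNAs) are small RNAs that guide PIWI proteins to transposon transcripts and other RNAs in germ cells. In the mouse testis, precursors are cut at the mitochondrial surface, trimmed and methylated at the 3′ end, while Tudor domain proteins gather the PIWI proteins into perinuclear granules called nuage. One class of piRNAs serves transposon silencing in the fetal and newborn testis, and another appears when spermatocytes reach pachytene, the phase of meiosis in which paired chromosomes recombine. The symbols were given as a list, all 32 were among the 31053 features of the deposited files, and the list sets no threshold on their levels. The genes were read in cells with a summed count of at least 2 unique molecular identifiers (UMIs) of Ddx4 and Dazl, a pair of germ cell genes. These cells numbered 12356 of the 23038 cells kept, and 24851 barcodes were deposited.

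Each group was 1 library, so no difference between groups has a replicate check, no test between groups was run, and a condition cannot be told apart from its library. All testes came from C57BL/6 mice that carry an Acr-Gfp transgene, a green fluorescent protein driven by the promoter of the acrosin gene. In the cultured libraries, 7 dpp (days postpartum) testes were fragmented and stayed for 2 or 7 days on an agarose gel in α-MEM with AlbuMAX under a PDMS-ceiling chip, and the other libraries were made from 9 dpp and 14 dpp testes without culture. Culture time and starting age add up to the in vivo age in each pair, 2-day culture with 9 dpp and 7-day culture with 14 dpp. The labels do not say how many animals were pooled, and their protocol for library preparation mentions female gonads although every sample is labelled as testis.

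Values given for all 4 libraries without further words are in the order 2-day culture, 7-day culture, 9 dpp, 14 dpp. By the Ddx4 and Dazl rule, germ cells numbered 2824, 2573, 2741 and 4218 in that order. They held 13096390, 22655890, 35474535 and 43523022 UMIs, with medians of 3740, 6836, 11397 and 7788.5 UMIs per cell. Of the 12356 cells, 346 carried a barcode sequence that occurred in more than 1 library. The rule also took in cells of Sertoli-like clusters, 49, 88, 186 and 505 of them. The 10 Sertoli markers summed to 1468, 1522, 2891 and 3837 CPM (the UMIs of a gene scaled to a fixed total of all UMIs of the same cells), none of the 10 being at 0, against 194, 75.5, 216 and 256 CPM in the cells that also lay in germ-like clusters. Cells just inside the rule, with exactly 2 UMIs, had a summed level of the 30 other genes of 1236, 679, 445 and 588 CPM in the same order of libraries. Cells just outside it, with 1 UMI, had 402, 397, 218 and 346 CPM, and all cells inside it had 2998, 3281, 2886 and 3064 CPM. The levels of Ddx4 and Dazl themselves are set in part by the rule and are given as a description only.

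Promoters are shown for the following genes because they stand at opposite ends of the stage pattern described further on: Piwil1 and Mael were highest in pachytene cells, Piwil4 and Tex19.1 in undifferentiated spermatogonia. Each runs from 250 bases before to 50 bases after a RefSeq transcript start on GRCm38.p6, 5′ to 3′ on the gene's own strand. The windows are chr5:128735996-128736295 on the plus strand for Piwil1, chr1:166238695-166238994 on the minus strand for Mael, chr9:14740623-14740922 on the minus strand for Piwil4 (the first of its 2 listed starts) and chr11:121145893-121146192 on the plus strand for Tex19.1. Capitals mark matches to AACNG on either strand, the core of the motif that MYB family proteins bind. One member, Mybl1, codes for a MYB factor that is known to drive piRNA precursors and piRNA pathway genes in spermatocytes.
Piwil1: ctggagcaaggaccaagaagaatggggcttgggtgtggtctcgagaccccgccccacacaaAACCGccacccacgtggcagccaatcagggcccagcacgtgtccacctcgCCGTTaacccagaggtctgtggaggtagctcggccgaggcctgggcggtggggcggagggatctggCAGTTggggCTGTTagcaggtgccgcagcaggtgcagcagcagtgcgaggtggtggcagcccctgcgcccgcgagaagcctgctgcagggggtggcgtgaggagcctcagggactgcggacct
Mael: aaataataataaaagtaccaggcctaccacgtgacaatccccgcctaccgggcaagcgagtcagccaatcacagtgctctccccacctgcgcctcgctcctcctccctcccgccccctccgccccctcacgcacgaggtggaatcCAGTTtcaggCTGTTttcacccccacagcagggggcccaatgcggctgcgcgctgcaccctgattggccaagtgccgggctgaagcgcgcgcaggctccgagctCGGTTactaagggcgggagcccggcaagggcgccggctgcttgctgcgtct
Piwil4: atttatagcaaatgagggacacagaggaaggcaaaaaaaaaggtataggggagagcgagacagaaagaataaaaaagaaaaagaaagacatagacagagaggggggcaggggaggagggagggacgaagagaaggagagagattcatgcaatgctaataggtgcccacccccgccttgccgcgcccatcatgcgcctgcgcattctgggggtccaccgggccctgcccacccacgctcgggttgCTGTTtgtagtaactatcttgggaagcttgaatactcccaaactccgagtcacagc
Tex19.1: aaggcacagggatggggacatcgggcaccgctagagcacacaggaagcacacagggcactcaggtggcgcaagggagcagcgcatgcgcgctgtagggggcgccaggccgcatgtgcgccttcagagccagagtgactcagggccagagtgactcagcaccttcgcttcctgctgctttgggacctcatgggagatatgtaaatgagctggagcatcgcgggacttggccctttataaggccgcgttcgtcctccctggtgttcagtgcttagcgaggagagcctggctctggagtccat
The Piwil1 window held 4 matches, the Mael window 3, the Piwil4 window 1 and the Tex19.1 window 0. Of the other genes highest in pachytene cells at 14 dpp, Gtsf1 and Tdrd3 held 0 in their first listed window. Ddx25, Stk31, Tdrd1 and Tdrd9 held 1, Tdrd5 and Tdrd12 held 2, Pld6 held 3 and Tdrd7 held 5. Of the others highest in undifferentiated spermatogonia, Asz1, Exd1 and Henmt1 held 1 and Fkbp6 held 2. The counts of both stage groups thus overlapped, and the windows shown do not stand for their groups. Promoters were listed for 25 of the 32 members, with 34 windows over their alternative starts. AACNG was found in 29 of these 34 windows, or 85.3%, and in 80.3% of all 32851 promoters in the table, so this short core is present in most promoters of any gene. The longer form GGCNGTT, whose every match contains AACNG on the other strand, was found in 10 of the 34 windows, or 29.4%, against 12.1% of all promoters. It lay in windows of Mael, Mov10l1, Piwil1, Pld6, Tdrd1, Tdrd12, Tdrd7 and Tdrkh. The 8-base form GGCAGTTG was present at Piwil1 and Tdrd7, in 2 of the 34 windows, or 5.88%, against 1.24% of all promoters. The longer forms were chosen after the data and the promoters had been seen, and a match is a description of these letters only.

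Germ stages were set from clusters of the germ cells computed without any of the 32 genes and named from other markers. Undifferentiated spermatogonia numbered 76, 170, 650 and 470 in the order of libraries given above. Differentiating spermatogonia numbered 1666, 938, 1506 and 1782 in the same order, and leptotene and zygotene cells, in which chromosomes begin to pair, 237, 845, 92 and 806. Preleptotene cells, which are entering meiosis, numbered 261 at 9 dpp and 490 at 14 dpp, with 17 and 38 in the cultures. Pachytene cells were found after 7 days of culture (69 cells) and at 14 dpp (100 cells) and numbered 0 in the other libraries. In the cultures, 712 and 401 cells lay in unnamed clusters, against 17 and 5 in vivo. Levels are given for stages with at least 50 cells in a library, with exact Poisson intervals at 95% that cover counting error only.

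The highest stage of the 30 genes outside the rule was most often pachytene at 14 dpp. In pachytene cells, 15 of 30 were highest, against 21.3% of all genes with at least 50 UMIs, and in undifferentiated spermatogonia 8 were highest, which is near the 28% of all genes. The pachytene group held Piwil1, Piwil2, Pld6, Tdrd12, Mael, Gtsf1, Tdrd1, Tdrd3, Tdrd5, Tdrd6, Tdrd7, Tdrd9, Stk31, Ddx25 and Mybl1. The undifferentiated group held Piwil4, Asz1, Exd1, Fkbp6, Henmt1, Pnldc1, Tex19.1 and Morc1. Of the others, Btbd18, Snd1, Tdrkh and Tex15 were highest in preleptotene cells (4 of 30, against 19.3%), Mov10l1 and Rnf17 in leptotene and zygotene cells (2, against 13.5%) and Kif17 in differentiating spermatogonia (1, against 17.9%). In the 7-day culture, 16 of 29 genes were highest in pachytene cells, against 22.3% of all genes, 8 in undifferentiated spermatogonia, against 28.5%, 3 in leptotene and zygotene cells, against 19.9%, and 2 in differentiating spermatogonia, against 29.3%. Piwil4, Asz1, Henmt1, Pnldc1, Tex19.1 and Morc1 were highest in undifferentiated spermatogonia in all 4 libraries, of the stages with at least 50 cells in each.

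**Figure D1:**
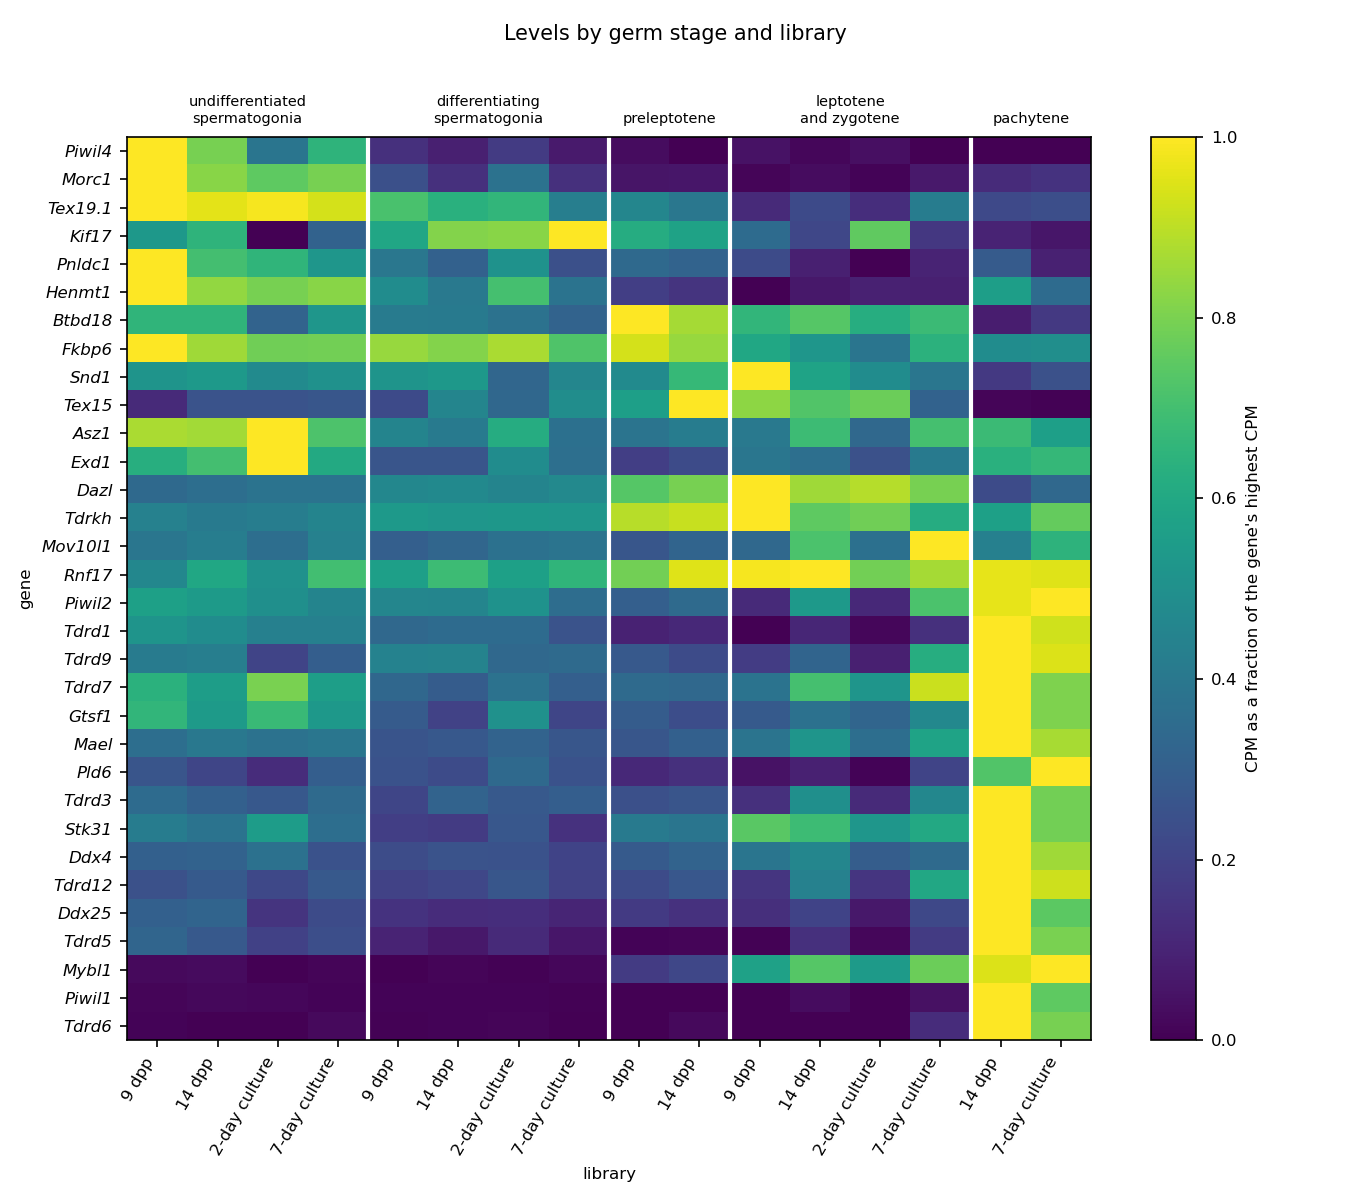
Levels of the 32 genes by germ stage and library, each gene's CPM as a fraction of its highest value (colour, 0 to 1), with columns for the stages that have at least 50 cells in a library. Piwil4 and Morc1 at the top are bright only in undifferentiated spermatogonia, and Tdrd5, Piwil1 and Tdrd6 at the bottom are brightest in the 14 dpp and 7-day culture pachytene columns.

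The 3 PIWI genes, whose proteins carry the piRNAs, each followed a different course. Piwil1 (ENSMUSG00000029423, chr5:128702524-128755474), the PIWI gene of pachytene piRNAs, stood at 13.4 CPM in undifferentiated spermatogonia, 7.12 in differentiating spermatogonia, 0.912 (from 2 UMIs) in preleptotene cells, 22.5 in leptotene and zygotene cells and 674 (95% interval 644 to 704) in pachytene cells at 14 dpp. In the 7-day culture its pachytene level was 506 CPM (472 to 542), after 31.3 CPM in leptotene and zygotene cells. The leptotene and zygotene values came mostly from cluster 17, whose markers were nearly as close to pachytene cells: it held 89 of 103 Piwil1 UMIs at 14 dpp (112 CPM in 52 cells) and 149 of 188 after 7 days of culture (85.6 CPM in 137 cells), with 0.68 to 12.4 CPM in the other 3 clusters of the stage. In both libraries the pachytene value was far above every earlier stage, and in the libraries with no pachytene cells Piwil1 was at most 11.9 CPM at any stage. Piwil4 (ENSMUSG00000036912, chr9:14696230-14740733), whose protein enters the nucleus of fetal germ cells and directs DNA methylation of transposons, had the opposite course. Its level in undifferentiated spermatogonia was 14.3 CPM (5.25 to 31.2, from 6 UMIs) after 2 days of culture, 24 (18.2 to 30.9) after 7 days, 36.7 (33.1 to 40.7) at 9 dpp and 29.3 (25.3 to 33.7) at 14 dpp. In differentiating spermatogonia the values were 6.31, 2.65, 5.08 and 3.3 CPM, lower than in undifferentiated spermatogonia in each library. Pachytene cells had 0 UMIs of Piwil4 in both libraries, which allows up to 2.28 CPM after 7 days of culture and 1.26 CPM in vivo. Piwil2, whose protein takes part in the amplification of piRNAs against transposons, varied least of the 3. At 14 dpp it stood at 73.5, 61, 46.5, 72.2 and 129 CPM from undifferentiated spermatogonia to pachytene cells, and in the 7-day culture it was 135 CPM in pachytene cells. In the leptotene and zygotene stage Piwil2 had 15.6 CPM (7.46 to 28.6) after 2 days of culture and 16.1 (7.38 to 30.6) at 9 dpp, against 96.6 (88.9 to 105) after 7 days and 72.2 (64.6 to 80.4) at 14 dpp, so the 2 younger libraries were low and their intervals did not overlap those of the older ones. The stage is made of clusters 7, 9, 11 and 17, which held 28, 34, 175 and 0 cells of the 2-day culture, 5, 74, 13 and 0 at 9 dpp, 443, 117, 148 and 137 of the 7-day culture and 246, 327, 181 and 52 at 14 dpp. In clusters 9 and 11, which held most of the younger cells, Piwil2 was low in the older libraries too, at 28.6 and 32.1 CPM at 14 dpp and 20.8 and 22.4 CPM after 7 days of culture, against 101 to 145 CPM in clusters 7 and 17.

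**Figure D2:**
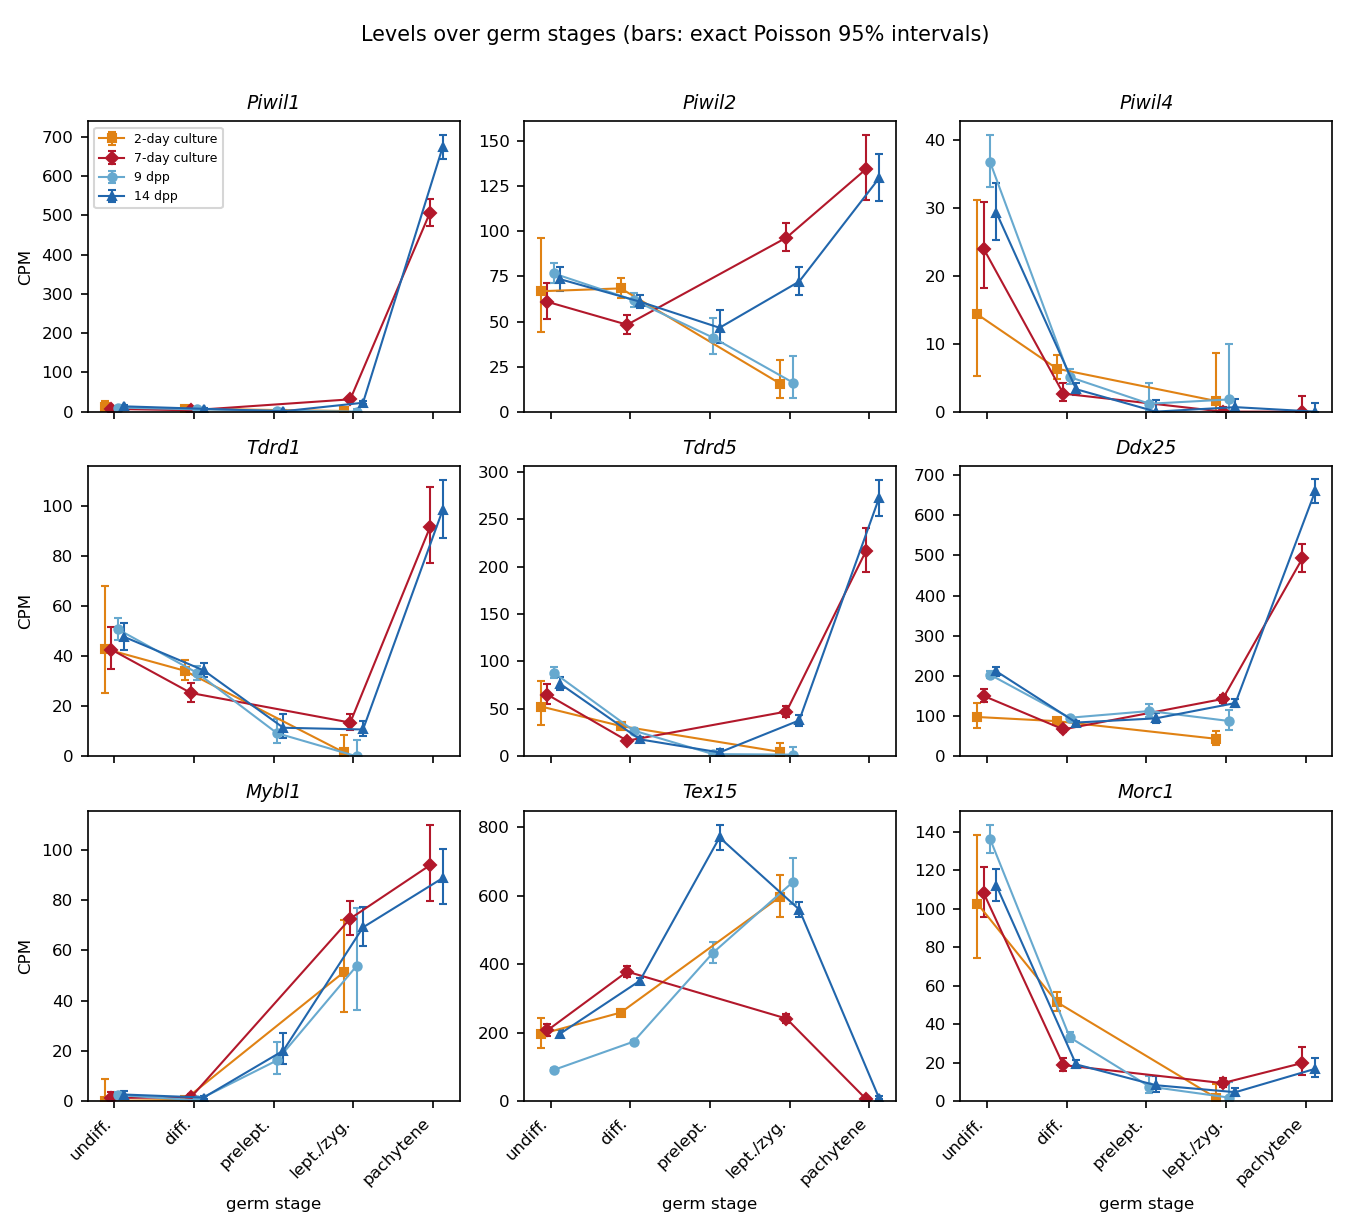
Levels in CPM (linear axis from 0, a separate scale for each gene) of 9 genes over the germ stages, with 1 line per library and bars for exact Poisson 95% intervals. Stages with under 50 cells in a library have no point, so the culture lines pass over preleptotene. Piwil1, Tdrd5 and Ddx25 are highest in pachytene cells, Piwil4 and Morc1 start high, and Tex15 peaks in between at 14 dpp.

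Several genes were lower at a stage in between than at both ends of the course, undifferentiated spermatogonia and pachytene cells. A gene was counted when both ends had at least 10 CPM and its lowest stage in between was at most 50% of each end. This pattern was chosen after the values had been seen. The ends need not be alike: at 14 dpp Piwil1 had 13.4 and 674 CPM, and Morc1 had 112 and 16.7 CPM. At 14 dpp, 11 of the 22 members with such ends met it, against 14.4% of all genes with such ends. In the 7-day culture it was 7 of 21, against 7.15%. Ddx25, Gtsf1, Henmt1, Morc1, Stk31, Tdrd1 and Tdrd5 met it in both libraries, and Exd1, Piwil1, Pld6 and Pnldc1 at 14 dpp. Preleptotene cells, the lowest stage of some of these genes at 14 dpp, had no level in the 7-day culture.

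The Tudor scaffolds, which bind methylated arginines of PIWI proteins and hold granules together, included 3 genes that met this pattern in both libraries, Tdrd1, Tdrd5 and Stk31. Tdrd5, needed for nuage assembly, stood at 76.4 CPM (69.8 to 83.4) in undifferentiated spermatogonia, 17.9 in differentiating spermatogonia, 4.11 (1.88 to 7.79) in preleptotene cells, 37.9 in leptotene and zygotene cells and 272 (253 to 291) in pachytene cells at 14 dpp. The preleptotene value at 9 dpp was 2.31 CPM from 4 UMIs, against 88.2 CPM in undifferentiated spermatogonia. Its leptotene and zygotene value at 9 dpp was 1.79 CPM from 1 UMI, so Tdrd5 was low at preleptotene in both in vivo libraries and lowest there at 14 dpp. Tdrd1, a scaffold of the mitochondrial granules, had 47.7, 34.3, 11.4, 10.7 and 98.3 CPM over the same stages at 14 dpp. In the 7-day culture Tdrd1 had 42.6, 25.3, 13.5 and 91.4 CPM in undifferentiated, differentiating, leptotene and zygotene, and pachytene cells. Tdrd6, a scaffold of the later chromatoid body, had 106 UMIs in all germ cells, and 50 of them lay in the 100 pachytene cells at 14 dpp, at 17.1 CPM (12.7 to 22.5). Its 7-day culture pachytene level was 13.6 CPM (8.52 to 20.6), so the intervals overlapped. Stk31, a Tudor kinase-like protein, had 238, 108, 241, 426 and 623 CPM over the stages at 14 dpp. Tdrd9, a helicase of the fetal pathway, had 30.2, 31.4, 16, 22.8 and 70.3 CPM, and Tdrd7 had 31.6 CPM in undifferentiated spermatogonia, 16.4 in differentiating spermatogonia and 56.7 in pachytene cells. Rnf17, a RING finger Tudor protein, had 175, 184 and 177 CPM from preleptotene to pachytene, with overlapping intervals. Snd1, a broadly expressed nuclease with a Tudor domain, went the other way, with 7.51 CPM (4.71 to 11.4) in pachytene cells against 23.9 to 30.1 CPM in the 4 earlier stages.

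The processing genes differed among themselves in their courses over the stages. Mov10l1, the helicase that binds piRNA precursors, was highest in leptotene and zygotene cells, at 259 CPM (245 to 275) at 14 dpp and 362 (347 to 378) in the 7-day culture, against 122 (94.7 to 155) at 9 dpp and 134 (107 to 165) in the 2-day culture. The older pair was higher than the younger pair over the whole stage. In clusters 9 and 11, which held most of the younger cells, Mov10l1 at 14 dpp had 118 and 106 CPM, against 376 and 427 CPM in clusters 7 and 17. The younger cells had 110 CPM (81.4 to 145) in cluster 9 at 9 dpp and 84.6 CPM (59.2 to 117) in cluster 11 after 2 days of culture. The part of the clusters in the difference over the stage was not tested. Pld6, the mitochondrial nuclease that cuts precursors, had 31.1, 34.2, 20.5, 13.8 and 109 CPM over the stages at 14 dpp and 149 CPM in pachytene cells of the 7-day culture. Mael, a nuage protein that binds RNA, had 703, 482, 537, 920 and 1758 CPM at 14 dpp and 1525 CPM in pachytene cells of the 7-day culture. Pnldc1, the trimmer of piRNA 3′ ends, had 33.2 CPM in undifferentiated spermatogonia and 4.16 in leptotene and zygotene cells at 14 dpp. Henmt1, the methyltransferase that caps those ends, had 57.8 and 4.38 CPM in the same stages. At 9 dpp the leptotene and zygotene cells had 0 UMIs of Henmt1, which allows up to 6.61 CPM, against 69 CPM in undifferentiated spermatogonia. At 14 dpp both end-finishing genes were thus lowest in the stage where Mov10l1 was highest. Tdrkh, a mitochondrial Tudor protein that recruits the trimmer, had its highest level at 14 dpp in preleptotene cells, at 315 CPM. Asz1, an ankyrin repeat protein of the mitochondrial surface, had 214 CPM in undifferentiated spermatogonia and 101 to 170 CPM later. Gtsf1, a zinc finger partner of PIWI proteins, had 358, 130, 155, 244 and 655 CPM, and Fkbp6, a co-chaperone, had 582, 551, 573, 355 and 329 CPM. Exd1 had 35.1 CPM in undifferentiated spermatogonia and 31.8 in pachytene cells, with 11.4 in preleptotene cells, and Tdrd12, a helicase with Tudor domains, had 65, 49.3, 62.5, 101 and 230 CPM.

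Mybl1 (ENSMUSG00000025912, chr1:9667415-9700209) was near 0 in spermatogonia and present from preleptotene on. At 14 dpp it had 2.59, 1.39, 20.1, 69.1 and 88.8 CPM over the stages. In leptotene and zygotene cells the 4 libraries had 51.3 CPM (35.3 to 72.1), 72.6 (66 to 79.8), 53.8 (36.3 to 76.8) and 69.1 (61.7 to 77.2), with overlapping intervals. Piwil1 in the same cells had 1.56 CPM from 1 UMI in the 2-day culture and 0 UMIs at 9 dpp, which allows up to 6.61 CPM, against 31.3 and 22.5 CPM in the older pair, most of it from cluster 17 as given above, which held 0 cells of the younger libraries. In clusters 9 and 11 the older libraries had Piwil1 at 0.68 and 2.79 CPM at 14 dpp (1 and 2 UMIs) and at 1.49 and 1.6 CPM after 7 days of culture (1 UMI each), with Mybl1 at 72.1 to 89.5 CPM. Few Piwil1 UMIs beside Mybl1 were thus found in these clusters in the older libraries too. Btbd18, a nuclear protein that promotes elongation of pachytene piRNA precursors, had 19.7, 12.4, 26, 22.1 and 2.39 CPM at 14 dpp.

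The genes of transposon silencing were all far below their highest stage in pachytene cells. Tex15 (ENSMUSG00000009628, chr8:33516738-33585582), which acts in piRNA-directed DNA methylation in the fetal testis and is also known for a role in meiotic repair, had 197, 352, 770, 560 and 9.9 CPM over the stages at 14 dpp. Its pachytene level in the 7-day culture was 5.56 CPM (2.54 to 10.6), against 378 CPM in differentiating spermatogonia. Tex15 was thus low in pachytene cells of both libraries. Morc1, a nuclear ATPase that acts on transposon chromatin, had 136 CPM (129 to 144) in undifferentiated and 33.1 (30.5 to 35.9) in differentiating spermatogonia at 9 dpp, and 112 and 16.7 CPM in undifferentiated spermatogonia and pachytene cells at 14 dpp. Tex19.1, which restrains retrotransposons in germ cells, had 398, 265, 164, 93.2 and 91.8 CPM at 14 dpp. Ddx25, a testis helicase of germ granules, had 211, 84, 94.4, 133 and 659 CPM, and Kif17, a kinesin that moves with chromatoid bodies, was at most 10.3 CPM in any stage and library. As a description only, Ddx4, the Vasa helicase of nuage, had 264, 213, 267, 383 and 836 CPM, and Dazl, an RNA-binding translation factor, 1262, 1664, 2784, 2992 and 796 CPM.

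Over all germ cells, the cultures were first compared with the in vivo libraries of the same summed age. Ratios are log2 ratios of CPM plus 1, and a gene counts as different when it is past 1.5-fold. Between the 2-day culture and 9 dpp, 4 of the 30 members were past 1.5-fold, 1 higher and 3 lower, beside 17.2% of all genes (6.37% higher and 10.8% lower). The median ratio of the 30 was -0.02, against -0.02 for all genes. Piwil4 had 4.81 CPM (3.7 to 6.15) in culture and 13.2 (12 to 14.4) in vivo, a ratio of -1.29. Tex15 had 282 CPM (273 to 291) against 152 (148 to 156), a ratio of 0.89, Tdrd5 had 24 against 39.5 CPM, a ratio of -0.70, and Ddx25 had 73.1 (68.5 to 77.9) against 116 (112 to 119), a ratio of -0.66. Tex15 was higher in culture and the other 3 lower, each beyond counting error. Undifferentiated spermatogonia, where Piwil4 and Tdrd5 were high, made up 2.69% of germ cells after 2 days of culture against 23.7% in vivo, and their part in these ratios was not tested over all germ cells. The other 26 members lay within 1.5-fold. With each cell thinned to 2000 UMIs the count was 7 of 29, 3 higher and 4 lower, beside 17.8% of all genes. With the cells outside germ-like clusters left out, the count was 6 of 30, beside 15.5%: Mybl1 was also past 1.5-fold, at 5.23 against 2.92 CPM (0.67), as was Morc1, at 41.5 against 65 CPM (-0.64).

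Between the 7-day culture and 14 dpp, 2 of 30 members were past 1.5-fold, 1 in each direction, beside 15.2% of all genes (4.92% higher and 10.3% lower). Mov10l1 had 196 CPM (191 to 202) in culture and 126 (122 to 129) in vivo, a ratio of 0.64. Piwil4 had 3.44 CPM (2.72 to 4.3) and 5.95 (5.25 to 6.72), a ratio of -0.65. Over all germ cells, Piwil4 was thus lower in the cultured library of both pairs. Undifferentiated spermatogonia, where Piwil4 was highest, made up 6.61% of germ cells in the 7-day culture against 11.1% in vivo, and within that stage Piwil4 was not past 1.5-fold in this pair (24 and 29.3 CPM, a ratio of -0.28, interval -0.74 to 0.14). Piwil1 had 47.4 CPM (44.7 to 50.4) and 56.6 (54.4 to 58.8), a ratio of -0.25, and Mybl1 had 29 and 22 CPM, a ratio of 0.39. The median ratio was 0.06, against 0.02 for all genes. With the cells outside germ-like clusters left out, the 2 of 30 past 1.5-fold, beside 12.6%, were Mybl1, at 30.3 against 19.8 CPM (0.59), and Piwil4 (-0.81), while Mov10l1 was within it at 0.53. The median ratio was then -0.06, against -0.01 for all genes, with 12 members above 0 and 18 below, against 17 and 13 over all germ cells. Mybl1 was counted in Sertoli-like cells too, as given further on.

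The pairs over time use the same 4 libraries, so each shares a library with each comparison of culture against in vivo. From 9 dpp to 14 dpp, 8 of 30 members were past 1.5-fold, 4 higher and 4 lower, beside 20.8% of all genes (11.5% higher and 9.29% lower). Piwil1 had 6.09 CPM (5.3 to 6.96) at 9 dpp and 56.6 at 14 dpp, a ratio of 3.02, and Mybl1 had 3.58 and 22 CPM, a ratio of 2.33. Tex15 had 152 and 292 CPM, a ratio of 0.94, and Tdrd6 had 4 and 64 UMIs, or 0.113 and 1.47 CPM. Lower at 14 dpp were Morc1, with 56.4 against 26.8 CPM (-1.05), Piwil4 (-1.03), Pnldc1, with 24.4 against 13.7 CPM (-0.79), and Henmt1, with 37.6 against 23.7 CPM (-0.64). These 4 are genes that were highest in undifferentiated spermatogonia, which made up 23.7% of germ cells at 9 dpp and 11.1% at 14 dpp. The other 4 members highest in that stage at 14 dpp were within 1.5-fold: Asz1 (-0.15), Exd1 (-0.03), Fkbp6 (-0.29) and Tex19.1 (-0.53). Pachytene cells, the highest stage of Piwil1, Mybl1 and Tdrd6 at 14 dpp, numbered 0 at 9 dpp. The part of either stage in the ratios was not tested.

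From the 2-day to the 7-day culture, 11 of 30 members were past 1.5-fold, 8 higher and 3 lower, beside 22.6% of all genes (12.1% higher and 10.5% lower). Piwil1 had 5.65 CPM (4.44 to 7.09) and 47.4, a ratio of 2.86, and Mybl1 had 5.12 and 29 CPM, a ratio of 2.29. Ddx25 (73.1 and 124 CPM), Mov10l1 (118 and 196), Tdrd5 (24 and 42.1), Tdrd9 (18.8 and 30) and Tdrd12 (52.4 and 79.5) were also higher after 7 days. Tdrd6 had 2 and 36 UMIs, or 0.153 CPM (0.0185 to 0.552) and 1.59 (1.11 to 2.2). Henmt1 (36.6 and 20.3 CPM), Pnldc1 (20.3 and 10.3) and Morc1 (37.6 and 22.9) were lower. At an equal depth of 2000 UMIs per cell the count was 6 of 29, 3 higher and 3 lower, beside 24.5% of all genes, so the larger number of higher members was not found there. Piwil1, Mybl1 and Tdrd6 were past 1.5-fold higher, and Henmt1, Morc1 and Pnldc1 lower, both in vivo and in culture. These comparisons share no library with each other. Pachytene cells, where Piwil1, Mybl1 and Tdrd6 were highest in the older libraries, numbered 0 in both younger libraries. Leptotene and zygotene cells numbered 237 and 845 in the cultures, and 92 and 806 in vivo. Within undifferentiated spermatogonia, Piwil1 had 11.9 and 6.9 CPM in the 2-day and 7-day culture, and 10.3 and 13.4 CPM at 9 and 14 dpp. The part of the stage shares in the higher ratios was not tested. Undifferentiated spermatogonia, the highest stage of Henmt1, Morc1 and Pnldc1, made up 2.69% of germ cells in the 2-day and 6.61% in the 7-day culture, so their share was higher at the later time in culture and lower at the later time in vivo. Tex15 was past 1.5-fold in vivo and stood at 282 and 276 CPM in the cultures. The difference between the 2 time comparisons was not tested. With the cells outside germ-like clusters left out, the counts were 8 of 30 over time in vivo, beside 18.6%, and 11 of 30 in culture, beside 25%. In vivo, Henmt1 was then within 1.5-fold (-0.51) and Tdrd12, at 49.4 against 76.7 CPM (0.62), was past it. Pachytene cells made up 2.68% of germ cells after 7 days of culture, against 2.37% in vivo.

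**Figure D3:**
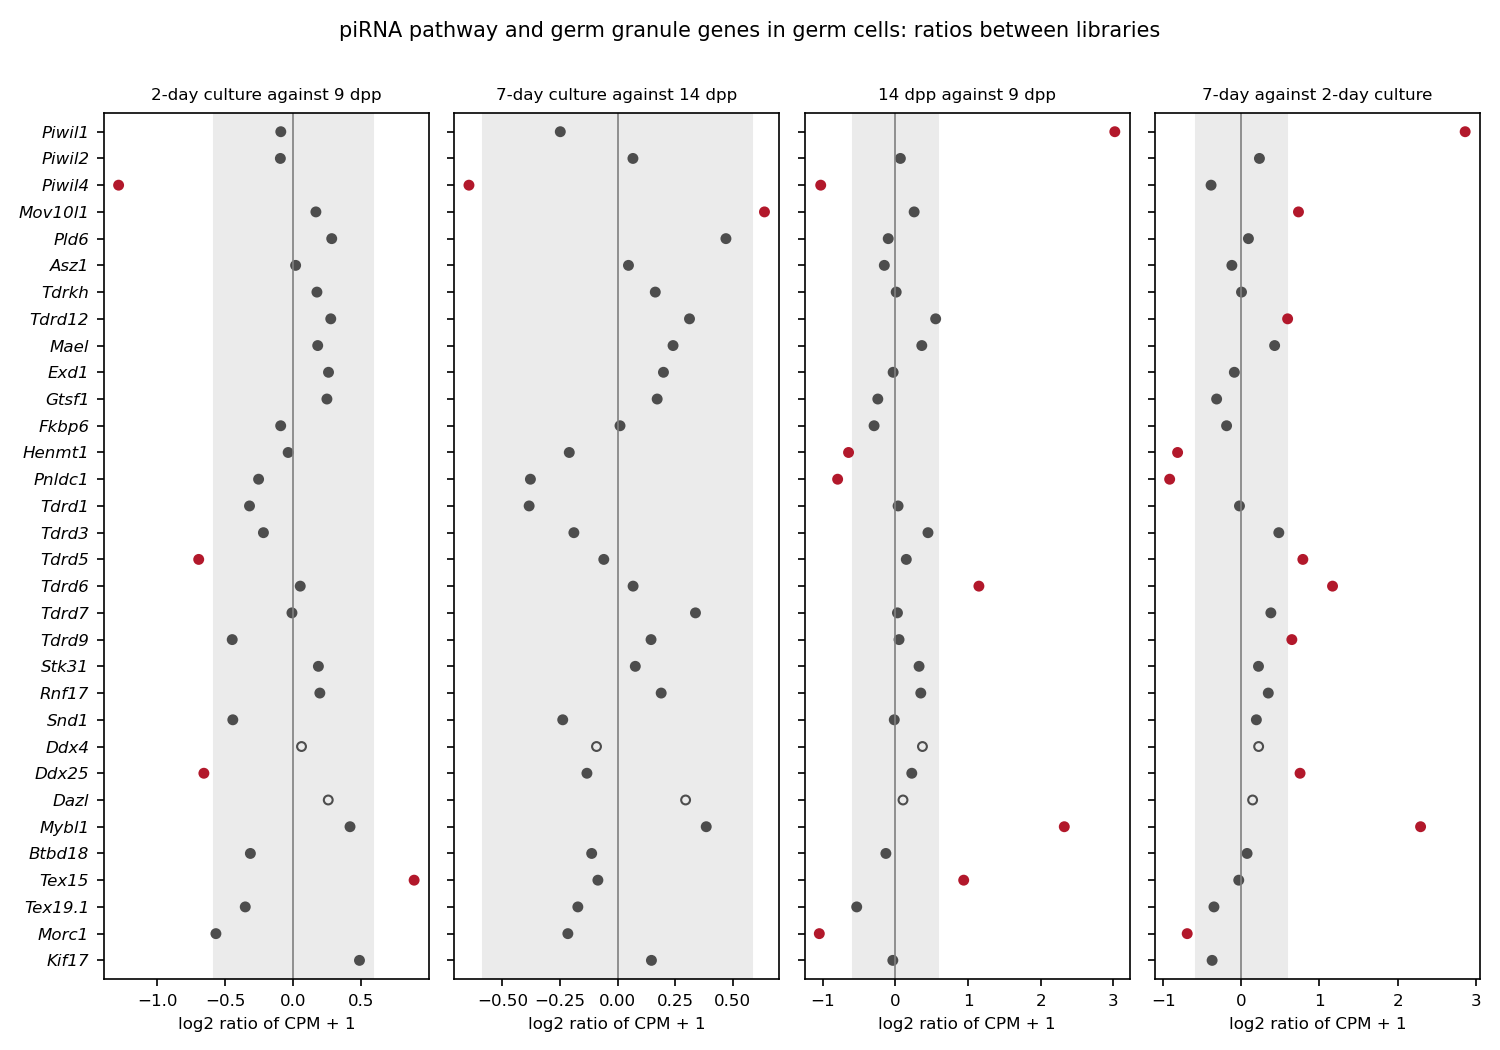
Log2 ratios of CPM plus 1 (x axis, a separate scale for each panel) of the 32 genes over all germ cells in the 4 comparisons. Red points are past 1.5-fold, the grey band marks ratios within it, and open points are Ddx4 and Dazl, which the cell rule uses. The panels of culture against in vivo hold 4 and 2 red points, and Piwil1 and Mybl1 lie far to the right in both panels over time.

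Culture and in vivo libraries were then compared within stages. Among differentiating spermatogonia, 4 of 28 members were past 1.5-fold between the 2-day culture and 9 dpp, beside 16.1% of all genes (9.38% higher and 6.73% lower), a share near that background. With finer clustering (resolution 2) it was 7 of 28 beside 17.9% of all genes, and with the stage taken from each cell's marker shares it was 7 of 28 beside 2102 of 11032 genes. Gtsf1 had 332 CPM in cultured cells and 189 in vivo, a ratio of 0.81 (0.74 to 0.88), Exd1 had 24.4 and 13.2 CPM (0.84), Morc1 had 51.4 and 33.1 CPM (0.62), and Snd1 had 14.8 and 23.2 CPM (-0.62). The first 3 were higher in culture, and Snd1 was lower. At resolution 0.5 the count was 3 of 28 beside 15.7% of all genes, and Gtsf1, Morc1 and Snd1 were not past 1.5-fold. Morc1 was also not past it with edgeR (TMM) scaling or with marker shares. With unnamed clusters given their closest stage, Morc1 and Snd1 were not past it. Exd1 was past it in each of these settings. For the 7-day culture and 14 dpp the count was 1 of 28, beside 11.9% of all genes (5.46% higher and 6.46% lower), with Piwil1 at 3.38 and 7.12 CPM (-0.89). It was 7 of 28 beside 26% with coarser clustering (resolution 0.5) and 3 of 28 beside 14.8% with marker shares. Most cells of this stage lay in different clusters: clusters 0, 3 and 10 in culture and clusters 1, 2, 6 and 14 in vivo. Culture and in vivo cells were thus apart by the genes used for clustering, which hold none of the members. Over all libraries, Gtsf1 had 352 and 123 CPM in clusters 0 and 3, and 120, 72 and 269 CPM in clusters 1, 2 and 6. The part of the clusters in its ratio was not tested.

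In undifferentiated spermatogonia, 10 of 28 members were past 1.5-fold between the 2-day culture and 9 dpp, 2 higher and 8 lower, beside 32.2% of all genes (13.4% higher and 18.8% lower). This rested on 76 cultured cells with a median of 5219.5 UMIs against 650 cells with 15008.5, and most of the cultured cells (65) lay in cluster 12, most of the in vivo cells (417) in cluster 4. Tex15 had 196 CPM in culture and 91 at 9 dpp, a ratio of 1.10 (0.76 to 1.43). Ddx25 had 97.8 and 203 CPM, a ratio of -1.05 (-1.54 to -0.61), Piwil4 had 14.3 and 36.7 CPM, a ratio of -1.30 (-2.81 to -0.22), and Tdrd5 had 52.5 and 88.2 CPM, a ratio of -0.74 (-1.43 to -0.14). Within cluster 12 the same 2 libraries had Ddx25 at 106 (74.5 to 146) and 101 CPM (90.3 to 113), Piwil4 at 14.3 (5 UMIs) and 16.6 CPM, and Tdrd5 at 48.6 (28.3 to 77.8) and 58.7 CPM (50.5 to 67.8), while cluster 4 at 9 dpp had 249, 45.9 and 102 CPM. Tex15 had 197 and 90.9 CPM within cluster 12 (1.11). The count in cluster 12, a comparison chosen after seeing the data, was 4 of 25, beside 24.5% of all genes, with Tex15, Henmt1 (0.62), Tdrd7 (0.59) and Btbd18 (-1.12). The lower Ddx25, Piwil4 and Tdrd5 of the stage were thus not found past 1.5-fold within cluster 12, where Tex15 was as far apart as over the stage. Pld6 had 8 UMIs in culture and a ratio of -0.99 (-2.25 to -0.04). The intervals of the other 5, Exd1, Pnldc1, Tdrd9, Btbd18 and Kif17, included 0. In the 7-day culture against 14 dpp the count was 2 of 28, both lower, beside 9.25% of all genes (4.18% higher and 5.06% lower). Piwil1 had 6.9 and 13.4 CPM, a ratio of -0.87 (-1.80 to -0.20), and the interval of Kif17 (-0.86) included 0.

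In leptotene and zygotene cells, 2 of 12 members were past 1.5-fold between the 2-day culture and 9 dpp, both lower, beside 21.2% of all genes (7.08% higher and 14.1% lower). Ddx25 had 43.5 CPM (28.9 to 62.9) and 87.8 (65 to 116) and Fkbp6 had 264 and 403 CPM (-0.61). Most of these cells lay in cluster 11 in culture (175 cells) and in cluster 9 in vivo (74 cells). Between the 7-day culture and 14 dpp it was 5 of 26, 4 higher and 1 lower, beside 20.9% of all genes (9.32% higher and 11.6% lower). The count was 8 of 25 beside 14.8% of all genes at resolution 0.5, and 11 of 23 beside 27.7% with marker shares. Tex15 had 241 CPM in cultured cells and 560 in vivo, a ratio of -1.21 (-1.31 to -1.12). Pld6 had 30.8 and 13.8 CPM (1.10), Tdrd9 had 43.9 and 22.8 (0.92), Tex19.1 had 174 and 93.2 (0.90) and Morc1 had 9.31 and 4.59 (0.88). As given above, clusters 7, 9, 11 and 17 filled the stage in unequal shares in these libraries. Within single clusters the Tex15 ratio was -0.51, -0.28, -0.17 and -0.20, none of them past 1.5-fold, although its level ran from 1223 CPM in cluster 9 to 42.9 CPM in cluster 17 at 14 dpp. The ratio over the whole stage was thus larger for Tex15 than within any of its clusters. Tdrd9 (1.11) and Tex19.1 (0.78) were past 1.5-fold in cluster 7, and Pld6 was past 1.5-fold in cluster 17, at 64.3 and 34.1 CPM (0.90). Morc1 was at 0.55 in cluster 7 and 0.08 in cluster 17, within 1.5-fold in both. Past it within 1 cluster and not over the stage were Fkbp6 (0.83) and Ddx25 (-0.63) in cluster 11, Tdrd12 (-0.60) in cluster 9 and Stk31 (-0.60) in cluster 17. The direction turned for Tex19.1 in cluster 9 (-0.31) and for Tdrd9 in cluster 17 (-0.16).

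In pachytene cells, 1 of 24 members was past 1.5-fold between the 69 cells of the 7-day culture and the 100 cells at 14 dpp, beside 18.9% of all genes (8.87% higher and 10% lower). The count was 8 of 28 beside 24% of all genes with coarser clustering (resolution 0.5), and 6 of 28 beside 29.3% with stages from marker shares. In the clusters used here it was Henmt1, with 24.1 CPM in culture and 38.6 at 14 dpp, a ratio of -0.66 (-1.24 to -0.14). The other 23 lay within 1.5-fold, with a median over the 24 of -0.11 against 0.01 for all genes. Piwil1 (506 and 674 CPM), Ddx25 (492 and 659) and Tdrd5 (217 and 272) were lower in culture beyond their separate intervals, and within 1.5-fold. At resolution 0.5, where 1 member was higher and 7 lower, Piwil1 (-0.94), Ddx25 (-0.69) and Tdrd5 (-0.65) were past 1.5-fold. With marker shares, where 3 were higher and 3 lower, Piwil1 (-0.80) was past it, and Ddx25 and Tdrd5 were not. Mov10l1, at 235 CPM (212 to 260) against 157 (143 to 172), had the highest ratio of the 24, 0.58, and Tdrkh (262 and 196 CPM) and Pld6 (149 and 109) were also higher beyond their separate intervals and within 1.5-fold.

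The cultures had too few preleptotene cells for a level, and their cells closest to that stage lay in an unnamed cluster, cluster 8, with 497 cells from the 2-day and 159 from the 7-day culture. Values of the 2 clusters are set side by side, and they hold cells that the clustering separated. Tdrd5 had 4.1 and 0 CPM in cluster 8 of the 2-day and 7-day culture, and 2.31 and 4.11 CPM in preleptotene cells at 9 and 14 dpp. Piwil4 had 0 UMIs in cluster 8 of both cultures. Tex15 had 512 and 647 CPM in cluster 8 and 434 and 770 CPM in preleptotene cells, and Tdrkh had 288 and 280 CPM against 307 and 315. Btbd18 differed more, at 18.6 and 5.66 CPM (27 and 6 UMIs) in cluster 8 against 30 and 26 CPM (52 and 57 UMIs), and Ddx25 had 59.9 and 108 CPM against 113 and 94.4. Of the meiotic genes, Rec8, a cohesin subunit, had 37.9 and 65.1 CPM in cluster 8 against 94.7 and 83.9, and Sycp3, of the chromosome axis, had 3501 and 1838 CPM against 1871 and 1931. Levels near those of preleptotene cells for Tdrd5, Piwil4, Tex15 and Tdrkh thus stood beside others that were apart.

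The share of germ cells with a UMI was compared at a common depth, with each germ cell outside Sertoli-like clusters thinned to 2000 UMIs and the same share in Sertoli-like cells as the background. Mael was found in 63.3%, 68.5%, 60% and 66.5% of germ cells, and in 2.25%, 5.7%, 2.64% and 15.2% of Sertoli-like cells. Piwil2 was found in 9.62%, 11.2%, 11.6% and 11.4% of germ cells and in 0.704%, 0.76%, 1.49% and 3.07% of Sertoli-like cells. Piwil4 was found in 1.05% (exact Clopper-Pearson 0.678 to 1.54), 0.541% (0.288 to 0.923), 2.25% (1.71 to 2.91) and 0.957% (0.668 to 1.33) of germ cells, with at most 1 positive Sertoli-like cell in each library. The 9 dpp share of Piwil4 was above the other 3, and the counts behind it were 57 of 2530 cells. Shallower cells left out numbered 385, 82, 25 and 57 germ cells and 29, 7, 6 and 72 Sertoli-like cells. Before thinning, the median depth of Sertoli-like cells was 7365, 9790, 14205 and 10151.5 UMIs.

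Some members were as high or higher in Sertoli-like cells, the somatic nurse cells of the tubule, as in germ cells. To limit the share of germ cell RNA, Sertoli-like cells with no Ddx4 or Dazl UMI were read, 561, 352, 533 and 378 cells in the same order of libraries. Snd1 had 27.3, 21.6, 30.2 and 35.6 CPM in them against 16.7, 19.4, 23.5 and 23.2 CPM in germ cells of germ-like clusters, and Tdrd3 had 14.1, 12.2, 15.3 and 15.9 against 6.49, 9.65, 6.63 and 10.3 CPM. Both were higher in Sertoli-like cells beyond counting error in 3 libraries. In the 7-day culture the interval of the log2 ratio of Sertoli-like to germ cells included 0 for Snd1 (-0.22 to 0.51) and Tdrd3 (-0.17 to 0.82). Mybl1 had 3.64, 8.81, 7.18 and 23.2 CPM in these cells and 5.23, 30.3, 2.92 and 19.8 in germ cells, so it was above the germ cell level at 9 dpp and below it in the 7-day culture beyond counting error. The log2 ratio had an interval of -1.41 to 0.29 in the 2-day culture and -0.16 to 0.59 at 14 dpp, both of which included 0. Fkbp6 had 56, 79, 118 and 190 CPM, below the 556, 484, 607 and 511 CPM of germ cells. Tdrd1 had 0.911, 1.42, 5.05 and 29.8 CPM, from 4, 5, 38 and 86 UMIs, and was high at 14 dpp, where germ cells had 37.7 CPM. Most other members were low: Stk31 had 4.5 CPM at 14 dpp in these cells against 231 CPM in germ cells, Mael 10.7 against 701, and Piwil1 1.38 from 4 UMIs against 69.7. In all Sertoli-like cells at 14 dpp, of which 46.7% met the germ cell rule, the same genes had 50.3, 121 and 8.69 CPM. The part of free or doublet RNA in the values of Sertoli-like cells was not tested, and the median over the 30 members of the level in all Sertoli-like cells was 3.32%, 5.76%, 6.72% and 18.4% of that in germ cells.

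**Figure D4:**
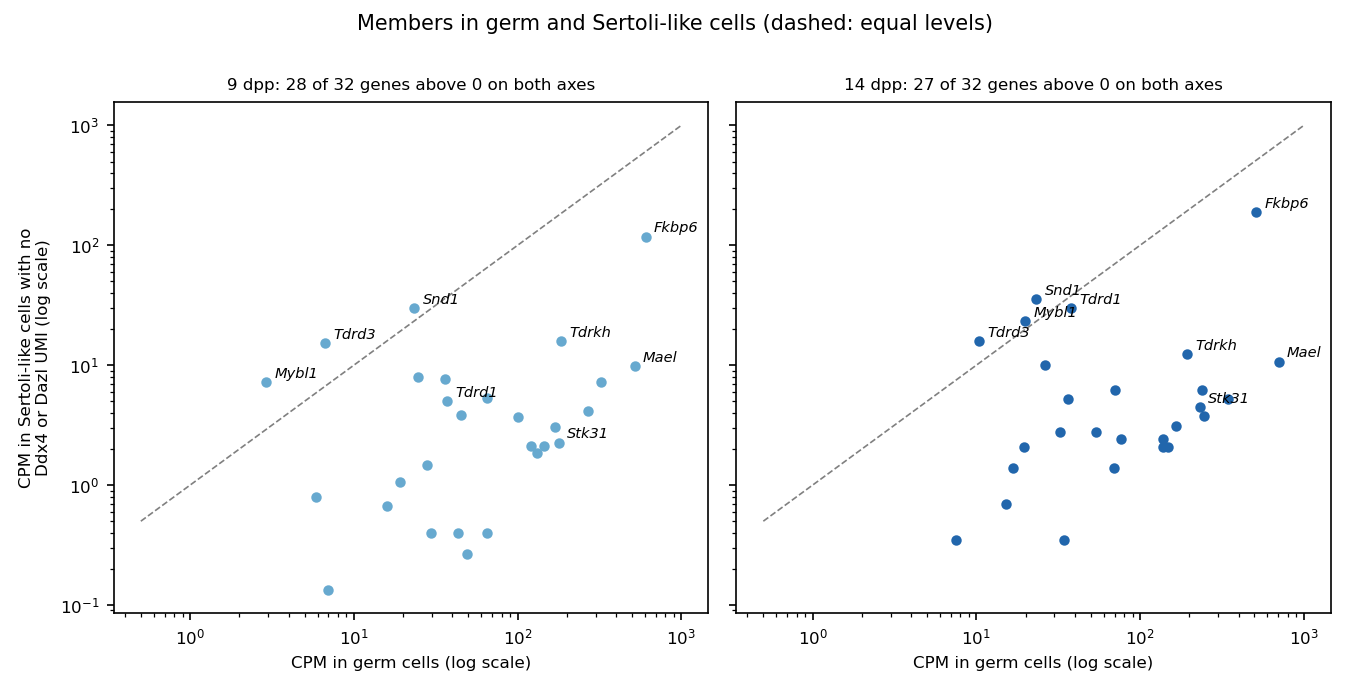
CPM in germ cells of germ-like clusters (x axis) against CPM in Sertoli-like cells with no Ddx4 or Dazl UMI (y axis), both on log scales, for members above 0 on both axes at 9 dpp and 14 dpp. Snd1, Tdrd3 and Mybl1 lie above the dashed line of equal levels in both panels, and Tdrd1 is near it at 14 dpp only.

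Of 28 further piRNA and germ granule genes on a list, 26 were in the files and 23 had at least 50 UMIs. Between the 2-day culture and 9 dpp, 0 were past 1.5-fold higher and 6 of 23 lower, beside 6.37% and 10.8% of all genes. These were led by Nanos3, an RNA-binding protein of germ cells, with 2.9 and 31.5 CPM (-3.06). Spocd1, a PIWIL4 partner in DNA methylation, had 0.458 CPM from 6 UMIs and 3.75 CPM (-1.70). Nanos2, a stem cell factor, had 0.305 CPM from 4 UMIs and 2.26 CPM (-1.32). Both ratios, which include the added constant of 1, lay outside their counting intervals (-4.50 to -1.87 and -4.79 to -1.47). Undifferentiated spermatogonia made up 2.69% of germ cells after 2 days of culture against 23.7% in vivo. Their part in these ratios was not tested over all germ cells. Between the 7-day culture and 14 dpp, Mov10 (27.4 and 47.5 CPM, -0.77) and Spocd1 (0.839 and 1.86, -0.64) were lower (2 of 23, beside 10.3%) and 0 genes higher (beside 4.92%). Mov10 had 39.9 and 73.9 CPM (-0.87) in the 2-day pair. Mov10 and Spocd1, the latter from 6 and 19 cultured UMIs, were thus lower in the cultured library of both pairs over all germ cells. From 9 dpp to 14 dpp, 5 were higher, beside 11.5%, and 6 lower, beside 9.29%: Ybx2, a germ cell RNA-binding protein, had 7.55 and 93.5 CPM (3.47), Meioc had 71.2 and 139 (0.95) and its meiotic partner Ythdc2 33.2 and 64.4 (0.94), while Nanos3 (-1.02), Dnd1 (121 and 71.7 CPM, -0.75) and Spocd1 (-0.73) were lower. From the 2-day to the 7-day culture, 7 were higher, beside 12.1%, and 0 lower, beside 10.5%, with Ybx2 at 8.32 and 86 CPM (3.22), Nanos3 at 2.9 and 13.9 (1.93) and Meioc at 85.9 and 180 (1.06).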

How the data were processed

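The matrices hold raw UMI counts per gene and barcode, deposited by the authors and made with Cell Ranger 3.0.2 from Chromium Single Cell 3′ v2 libraries, per the file headers, the labels and the submitters' processing notes. Those notes name mm10, and cell calling settings are not given in the sources used here. Cells had to have 500 genes or more and mitochondrial UMIs of 20% or less, and Scrublet calls (scanpy 1.11.5, expected rate 6%) were removed. Germ cells (at least 2 UMIs of Ddx4 plus Dazl) were clustered with Leiden (leidenalg 0.10.2, resolution 1, 2000 variable genes without the members, 30 components, 20 neighbours, no batch correction), and clusters were named from stage markers with at least 3 detected. Counts were summed per library and stage and divided by the total of those cells. Ratios are log2 of CPM with a constant of 1 added, for genes with 50 UMIs or more in all, and intervals are exact at 95%, covering counting error only. Genes named in full are members past 1.5-fold, and from the further list the 3 largest in each direction. A count of all genes past 1.5-fold is given beside each first count. Gene positions come from GENCODE on GRCm38 by identifier, promoters from RefSeq. Alternatives covered the added constant, scaling with edgeR 4.0.16, cell filters, germ cell rules, clustering and depth. The counting and ratio steps were tested on simulated data. The members and lists were chosen with earlier results of these data known. The labels give no batch.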

Additional observations from a re-analysis of the deposited data

Results flagged for a closer look

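Nanos3 ran in opposite directions over time. Its ratio was -1.02 from 9 dpp to 14 dpp and 1.93 from the 2-day to the 7-day culture, with 31.5 and 15 CPM in vivo and 2.9 and 13.9 CPM in culture. Undifferentiated spermatogonia, where Nanos3 was highest, made up 23.7% and 11.1% of germ cells in vivo and 2.69% and 6.61% in culture, and within that stage Nanos3 had 100.5 and 89.5 CPM in vivo and 16.7 (from 7 UMIs) and 105 CPM in culture. Nanos3 was among the leading genes of cluster 4 of that stage. This cluster held 11 and 113 cells of the 2-day and 7-day culture, and 417 and 314 at 9 and 14 dpp. Cluster 12 of the same stage held 65, 57, 233 and 156 cells in that order. The part of these shares and clusters in the ratios was not tested. With 1 library in each group, the difference between these comparisons was not tested. Nanos3 is a gene of the further list and not a member.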

How the results depend on the processing

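With 1 library per group, no replicate could be left out and all intervals cover counting error only. No paired analysis was possible because each group holds 1 library and the groups share fewer than 2 replicate numbers. Of 457 recomputed ratios of members past 1.5-fold, 96 lay outside the counting interval of the reported ratio in the same direction and 5 changed direction. These members were chosen by size, so a kept direction is no sign of stability. The 5 were found in single clusters, a split chosen after seeing the data. In leptotene and zygotene cells of the 7-day pair Tex19.1 was at -0.31 in cluster 9 and Tdrd9 at -0.16 in cluster 17, and in undifferentiated spermatogonia of the 2-day pair Pnldc1 was at 0.16, Tdrd9 at 0.0197 and Ddx25 at 0.0643 in cluster 12. The number of members past the fold threshold over all germ cells, in the order of 2-day culture against 9 dpp, 7-day culture against 14 dpp, 14 dpp against 9 dpp and 7-day against 2-day culture, was 1, 0, 5 and 3 past 2-fold. With a constant of 10 the last 3 were 1, 4 and 6. After thinning each cell to 2000 UMIs the first was 7 and the last 6. The 7-day culture against 14 dpp gave 1 with all cells of germ-like clusters and 1 with a stricter cell filter. Within stages, TMM scaling gave 1 for leptotene and zygotene cells of the 2-day pair and 2 for differentiating spermatogonia of the 7-day pair. At resolution 0.5 the 7-day pair gave 7 in differentiating spermatogonia, 8 in leptotene and zygotene cells and 8 in pachytene cells, and at resolution 2 the 2-day pair gave 7 in differentiating spermatogonia. With the stage taken from each cell's marker shares, the 2-day pair gave 7 in differentiating spermatogonia and 1 in leptotene and zygotene cells, and the 7-day pair gave 3, 11 and 6 in differentiating, leptotene and zygotene, and pachytene cells. Counts within stages thus depended on how stages were drawn. Unnamed clusters given their closest stage, another later choice, brought differentiating spermatogonia to 2 in each pair. Leptotene and zygotene clusters 7, 9, 11 and 17 alone gave 2 of 24, 1 of 16, 2 of 13 and 2 of 21, beside 12.9%, 14.7%, 19.7% and 13.2% of all genes. Undifferentiated cluster 12 alone gave 4 for the 2-day pair, while clusters 4 and 12 each gave 1 for the 7-day pair. The median share of germ cells with a UMI of a member was 6.86%, 6.03%, 7.43% and 5.43% in the 2-day culture, 7-day culture, 9 dpp and 14 dpp. Thinned to 1000 UMIs it was 3.02%, 2.99%, 3.98% and 2.68%, and without thinning 14.4%, 20.5%, 33% and 21.1%, so depth set its level. The causes of the other shifts were not tested.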
